A study of Rattus norvegicus with 6 samples.

Results

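The collagen genes are the rows of the counts table whose symbol has the form Col, a type number, a and a chain number. There were 43 such rows among 21857, and 27 of them were expressed, which here means a mean of at least 1 CPM (counts scaled to a common library size) over all libraries. The cells were mesenchymal stem cells of rat adipose tissue (Sprague Dawley), a cultured stromal cell type. The BCAA group (3 libraries) had 3.432 mM branched chain amino acids (leucine, isoleucine and valine) for 12 h, and the vehicle group (3 libraries) had vehicle for 12 h. Both groups shared a BCAA-free medium with serum and 100 µM hydrogen peroxide, an oxidant. The comparison addresses which transcripts differ when BCAA are present, and no group without hydrogen peroxide was analysed here. The BCAA mixture, the vehicle, and the number of animals or cultures behind the libraries are not named in the labels. The p-values therefore reflect how far these libraries scatter, and that scatter could be technical.

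Collagens are secreted proteins whose chains wind into a triple helix of repeated glycine-containing triplets, a structure that needs hydroxylated proline. Fibrillar collagens (types I, II, III, V, XI, XXIV and XXVII) build the banded fibrils that give connective tissue its strength. Type IV chains form the sheet-like network of basement membranes, which types XV and XVIII attach to, and the remaining types decorate fibrils, form short-chain or beaded networks, anchor epithelia or span cell membranes. Stromal cells of fat are known as a main source of fibrillar collagen in that tissue.

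Library totals ran from 12725344 to 15739731 counts. The stromal markers Eng, Thy1, Nt5e, Cd44, Pdgfra and Pdgfrb were all above 1 CPM, with summed levels of 3246 to 3329 CPM in BCAA libraries and 3051 to 3200 CPM in vehicle libraries. All 5 epithelial markers and all 5 adipocyte markers lay under 1 CPM on average, Krt5 with no count, as did 3 of 4 endothelial markers (Cdh5, Kdr and Emcn, not Tek). The adipocyte list summed to 0.86 to 2.70 CPM with BCAA and 0.93 to 1.10 CPM with vehicle, the endothelial list to 2.91 to 4.62 CPM with BCAA and 3.84 to 5.27 CPM with vehicle, and the epithelial list to 0.74 to 1.17 CPM with BCAA and 0.29 to 1.41 CPM with vehicle. The 4 leukocyte markers measured (Ptprc, Cd68, Csf1r and Cd14) were all above 1 CPM, at means of 15.7, 30.5, 17.4 and 104 CPM over all libraries. They summed to 160 to 171 CPM with BCAA and 164 to 173 CPM with vehicle. Of the 5 chondrocyte markers, Sox9 and Comp passed 1 CPM, Acan and Matn3 lay under it and Matn1 had no count (summed 29.8 to 35.4 CPM with BCAA and 25.5 to 35.3 CPM with vehicle). Vehicle replicate 1 stood apart from vehicle replicates 2 and 3, with the BCAA libraries between them in mitochondrial share. Mitochondrially encoded genes took 5.60% to 6.24% of the counts of BCAA libraries, against 6.58% in vehicle replicate 1 and 4.92% and 4.91% in vehicle replicates 2 and 3. Values without vehicle replicate 1 are given beside those that it moved by over 1.5 times.

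No collagen gene changed between the groups at an adjusted p under 0.05 (edgeR's quasi-likelihood test with Benjamini-Hochberg adjustment over 12298 genes). Of the 29 collagen rows tested, 0 were called, beside 0.228% of all genes tested. An unadjusted p under 0.05 was found for 2 of them (Col14a1 and Col6a2), beside 11.8% of all genes. Without vehicle replicate 1, edgeR gave 13 of the 29 an unadjusted p under 0.05, beside 2274 of 12298 genes. With all libraries, DESeq2 also called 0, beside 1.42% of all genes, although it gave no adjusted p for 7 of the 29. The count was likewise 0 in edgeR without the low-count filter (beside 0.748%), with RLE factors (0.26%), with unscaled totals (0.236%) and with the replicate number as a block (0.0488%). The fold changes were small: log2 values of the 27 expressed members ran from -0.38 to 0.27 with a median of -0.06, beside a median of 0.00 over all genes tested. Of these 27, 18 had a negative and 9 a positive log2 fold change, where 49.2% of all genes were negative. For 20 of the 27, the 95% interval of the fold change lay within 1.5-fold in both directions, beside 74.4% of all genes tested. Without vehicle replicate 1, however, 5 collagen genes (Col1a1, Col15a1, Col16a1, Col6a2 and Col14a1) were called lower with BCAA, beside 2.2% of all genes called lower there. Only vehicle replicates 2 and 3 stood for vehicle in that fit, and 500 genes were called over the whole table, against 28 with all libraries. The SE of Col1a1 was 0.06 there against 0.15 with all libraries, while that of Col14a1 stayed at 0.10. How far these calls come from a smaller spread was not tested. Leaving out any one of the other 5 libraries called 0, beside 0.0569% of all genes without BCAA replicate 1, 0.0651% without BCAA replicate 2 or 3, and 0.0894% without vehicle replicate 2 or 3.

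**Figure D1:**
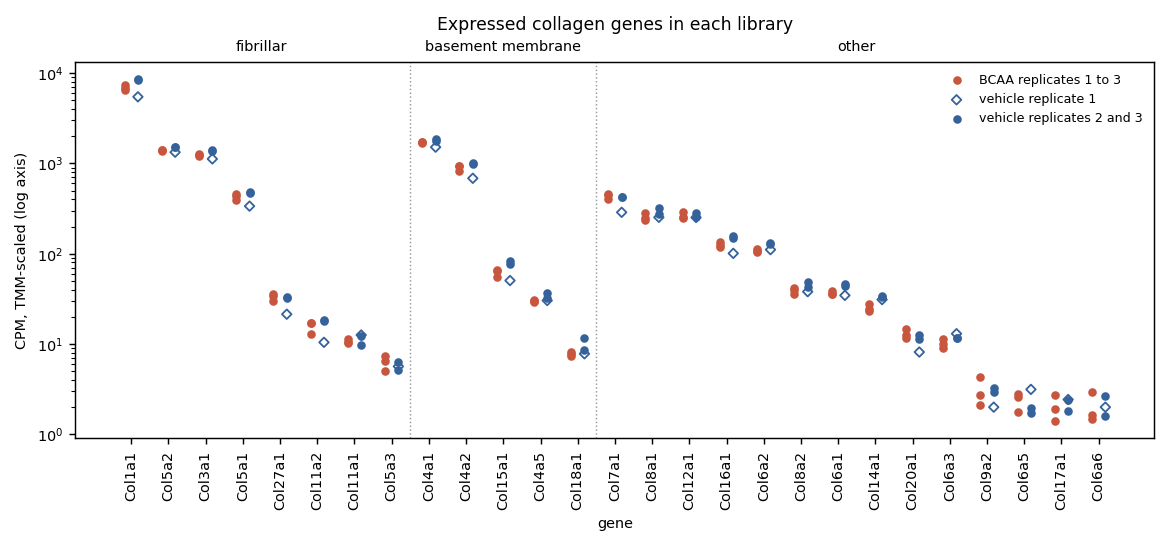
CPM with TMM scaling (log axis) of the 27 expressed collagen genes, 1 point a library, with BCAA replicates 1 to 3 in red on the left of each gene and vehicle replicates in blue on the right. The open diamond is vehicle replicate 1, which is the lowest of the 6 libraries for 14 of the genes.

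Collagen rows together took 1.45%, 1.49% and 1.33% of the counts of BCAA replicates 1 to 3, and 1.13%, 1.62% and 1.64% of those of vehicle replicates 1 to 3. The BCAA libraries thus lay between vehicle replicate 1 and the other vehicle libraries. The mean was 1.42% ± 0.0836 with BCAA and 1.46% ± 0.288 with vehicle (SD, n = 3 each), a difference of -0.04 percentage points that was smaller than either spread. Without vehicle replicate 1 the difference was -0.21 percentage points. Counting error alone gave 95% Wilson intervals of at most 0.0070 percentage points to either side. Fibrillar rows held 72.0% of all collagen counts, basement membrane rows 18.8% and the others 9.22%. Col1a1 alone held 49.9%. These are shares of reads, not of molecules, since longer transcripts give more reads and transcript lengths were not used here.

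**Figure D2:**
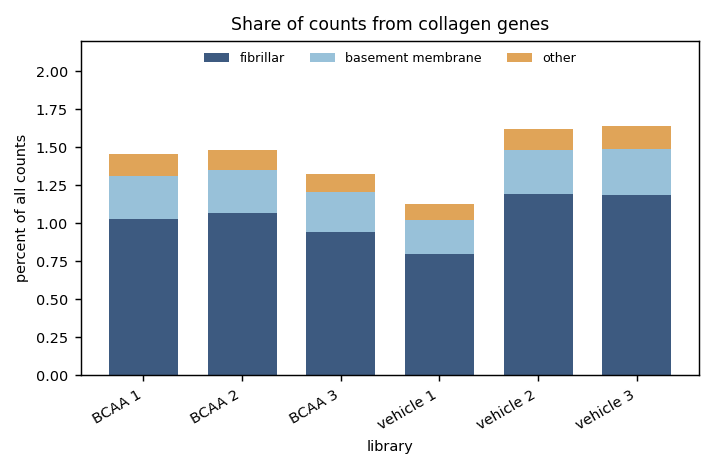
Percent of all counts of each library that came from fibrillar, basement membrane and other collagen rows, with BCAA libraries on the left and vehicle libraries on the right. The stacked bars reach 1.33% to 1.49% in BCAA libraries, 1.13% in vehicle replicate 1 and 1.62% and 1.64% in vehicle replicates 2 and 3.

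Of the 10 fibrillar rows, 8 were expressed, and none passed the test. Their median log2 fold change was -0.03, with 5 negative and 3 positive, and it was -0.13 without vehicle replicate 1. It turned positive without BCAA replicate 3 (0.01), vehicle replicate 2 (0.04) or vehicle replicate 3 (0.03). Col1a1, the main chain of type I collagen, was at 6877, 7435 and 6465 CPM in BCAA replicates 1 to 3, and at 5451, 8481 and 8433 CPM in vehicle replicates 1 to 3. The BCAA libraries were all above vehicle replicate 1 and all below the other vehicle libraries, so the groups overlapped. The log2 fold change was -0.11 (SE 0.15, edgeR adjusted p = 0.84), with a 95% interval from -0.45 to 0.24. Without vehicle replicate 1 it was -0.29 (SE 0.06, adjusted p = 0.0058), a call that only this omission gave. Sgca, which overlaps Col1a1 in RefSeq's gene list for assembly GRCr8, had 3 to 9 counts per library. Its partner Col1a2 was not analysed here, so the balance of type I chains was not measured.

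Col3a1, the chain of the homotrimer type III that co-assembles with type I, was at 1253, 1260 and 1201 CPM with BCAA and at 1120, 1394 and 1362 CPM with vehicle. Col5a2 and Col5a1 encode chains of type V, a minor collagen that nucleates fibrils. Col5a2, the neighbour of Col3a1 on chromosome 9, was at 1407, 1392 and 1365 CPM with BCAA and at 1329, 1504 and 1523 CPM with vehicle. Col5a1 was at 455, 439 and 389 CPM with BCAA and at 336, 477 and 470 CPM with vehicle. In all of them the lowest library was vehicle replicate 1 and the highest was another vehicle library. The log2 fold changes were -0.06 (SE 0.08) for Col3a1, -0.06 (SE 0.07) for Col5a2 and -0.00 (SE 0.12) for Col5a1, with edgeR adjusted p from 0.75 to 1.00. Their 95% intervals reached at most 1.20-fold in either direction. Leaving out vehicle replicate 1 gave -0.15 (SE 0.05) for Col3a1, -0.12 (SE 0.05) for Col5a2 and -0.14 (SE 0.06) for Col5a1, with edgeR adjusted p of 0.090, 0.18 and 0.19. The ratio of Col5a1 to Col5a2 counts within a library, in which transcript length cancels between libraries, was 0.308 ± 0.0204 with BCAA and 0.293 ± 0.0349 with vehicle (SD, n = 3 each). The ratio of Col3a1 to Col1a1 counts was 0.179 ± 0.00861 with BCAA and 0.177 ± 0.0246 with vehicle, highest in vehicle replicate 1 at 0.205.

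The less read fibrillar genes had log2 fold changes of both signs. Col27a1, a fibrillar collagen known from cartilage, was at 36.1, 34.3 and 29.7 CPM with BCAA and at 21.4, 32.9 and 32.6 CPM with vehicle. Its log2 fold change was 0.20 (SE 0.14) with all libraries and 0.03 (SE 0.10) without vehicle replicate 1. Col5a3, a further type V chain, was at 7.29, 6.46 and 5.09 CPM with BCAA and at 5.66, 5.21 and 6.27 CPM with vehicle, with overlapping groups (log2 fold change 0.15, SE 0.18). Col11a1 and Col11a2, chains of the cartilage type XI, averaged 10.8 ± 0.594 and 15.6 ± 2.27 CPM with BCAA, against 11.6 ± 1.53 and 15.7 ± 4.51 CPM under vehicle (SD, n = 3 each). Col2a1, the major cartilage collagen, had at most 5 counts in any library. Col24a1 lay just under the 1 CPM border at 0.81 CPM.

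Of the 8 basement membrane rows, 5 were expressed and none passed the test. The median log2 fold change was -0.14, with 4 negative and 1 positive, and it was -0.00 over the type IV chains alone and -0.19 for the whole class without vehicle replicate 1. Col4a1 and Col4a2, which make the most widespread type IV network, lie head to head, and their RefSeq starts in assembly GRCr8 are separated by only 76 bases. That stretch, chr16:84885521-84885596, is shown on the plus strand, the strand of Col4a1, because it lies upstream of both genes at once and both were measured here. Capitals mark a GC box (GGGCGG, searched on both strands, here read as its reverse complement).

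Col4a2/Col4a1 gap: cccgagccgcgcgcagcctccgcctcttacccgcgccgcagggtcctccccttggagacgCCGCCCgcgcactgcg

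A GC box was found in 18.1% of the 76-base stretches before all 33469 starts in the RefSeq table. The gap is 78.9% G or C, and that share was not matched for G and C content. Col4a1 was at 1713, 1740 and 1661 CPM with BCAA and at 1512, 1751 and 1868 CPM with vehicle. Col4a2 was at 942, 947 and 826 CPM with BCAA and at 684, 974 and 1016 CPM with vehicle. For both genes vehicle replicate 1 was the lowest library and vehicle replicate 3 the highest, with the BCAA libraries between them. The log2 fold changes were -0.00 (SE 0.08) for Col4a1 and 0.02 (SE 0.13) for Col4a2, with edgeR adjusted p of 0.99 and 0.97. They were -0.08 (SE 0.05) for Col4a1 and -0.13 (SE 0.06) for Col4a2 without vehicle replicate 1. With all libraries the 95% interval of Col4a1 reached at most 1.12-fold, and that of Col4a2 at most 1.24-fold. The ratio of Col4a1 to Col4a2 counts was 1.82, 1.84 and 2.01 in BCAA libraries, and 2.21, 1.80 and 1.84 in vehicle libraries. Vehicle replicate 1 had the highest ratio, so Col4a2 was further down in it than Col4a1.

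Col4a5, a chain of a more restricted type IV network, was at 29.8, 29.1 and 30.9 CPM with BCAA and at 30.4, 32.0 and 36.6 CPM with vehicle. Its usual partners Col4a3, Col4a4 and Col4a6 had 0 to 13 counts per library and were not tested. Col15a1 and Col18a1 encode multiplexins, basement membrane collagens whose ends give endostatin-like fragments. Col15a1 was at 66.5, 64.1 and 54.9 CPM with BCAA and at 50.5, 77.4 and 83.1 CPM with vehicle. As with Col1a1, the BCAA libraries lay between vehicle replicate 1 and the other vehicle libraries. Its log2 fold change was -0.18 (SE 0.16, edgeR adjusted p = 0.71) with all libraries, and -0.37 (SE 0.08, adjusted p = 0.0097) without vehicle replicate 1. Col18a1 was at 7.76, 7.48 and 8.14 CPM with BCAA and at 7.81, 11.6 and 8.54 CPM with vehicle (log2 fold change -0.26, SE 0.17, edgeR adjusted p = 0.57, and -0.37 without vehicle replicate 1).

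**Figure D3:**
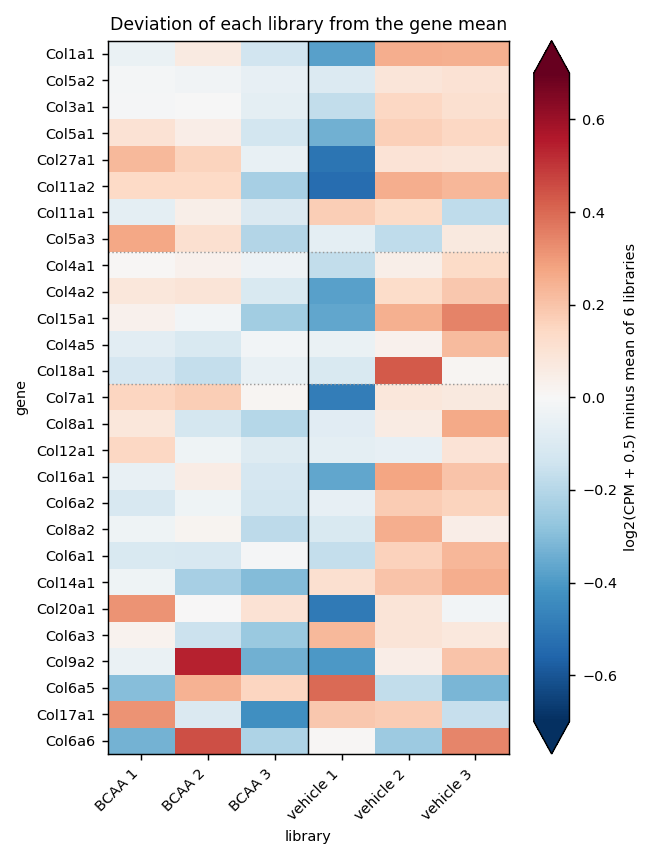
Deviation of each library from the mean of the 6 libraries for each expressed collagen gene, as log2(CPM + 0.5), with BCAA libraries left of the line and vehicle libraries right of it. Blue cells fill much of the column of vehicle replicate 1, from Col1a1 and Col5a1 to Col7a1 and Col20a1, while Col11a1, Col14a1, Col6a3 and Col6a5 are red there.

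Of the 25 other collagen rows, 14 were expressed and none passed the test, with a median log2 fold change of -0.12 (-0.14 without vehicle replicate 1), 9 negative and 5 positive. Col14a1, a fibril-associated collagen that binds decorin and limits fibril growth, had the smallest p of all collagens. It was at 28.1, 24.4 and 23.2 CPM with BCAA and at 31.1, 33.1 and 34.4 CPM with vehicle. All BCAA libraries lay below all vehicle libraries. Its log2 fold change of -0.38 (SE 0.10) corresponds to a level 1.30-fold lower, with an unadjusted p of 0.0021 and an edgeR adjusted p of 0.14. It was between -0.47 and -0.32 with any one library left out, and the adjusted p was 0.021 without vehicle replicate 1 and at most 0.41 without another. Col14a1 and Col6a3 were the 2 of 27 expressed members whose groups did not overlap with BCAA lower, beside 8.76% of all genes, and none did so with BCAA higher, beside 9.29%.

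Type VI chains form beaded filaments around cells and are abundant in fat tissue. Col6a1 and Col6a2, neighbours on chromosome 20, and Col6a3 are the chains of its common form, and all had negative log2 fold changes. Col6a2 was at 107, 113 and 106 CPM with BCAA and at 111, 131 and 129 CPM with vehicle. Its log2 fold change was -0.19 (SE 0.08, unadjusted p = 0.030, edgeR adjusted p = 0.36) with all libraries and -0.25 (SE 0.06, adjusted p = 0.018) without vehicle replicate 1. Col6a1 was at 36.1, 36.0 and 38.6 CPM with BCAA and at 34.6, 43.5 and 45.7 CPM with vehicle. Col6a3 was at 11.3, 9.95 and 9.16 CPM with BCAA and at 13.0, 11.8 and 11.7 CPM with vehicle, without overlap. Their log2 fold changes were -0.16 (SE 0.10) for Col6a1 and -0.26 (SE 0.13) for Col6a3, with edgeR adjusted p of 0.58 and 0.46. They were -0.27 (SE 0.08) for Col6a1 and -0.21 (SE 0.15) for Col6a3 without vehicle replicate 1. The ratio of Col6a1 to Col6a2 counts was 0.341 ± 0.0241 with BCAA and 0.333 ± 0.0216 with vehicle, and that of Col6a3 to Col6a2 was 0.0934 ± 0.0106 with BCAA and 0.0995 ± 0.0156 with vehicle (SD, n = 3 each). Neither ratio separated the groups. The alternative chains Col6a5 and Col6a6 lay between 1.49 and 3.15 CPM in every library. Their gene spans in GRCr8 overlap Rpl29, a ribosomal protein gene with 11427 to 15782 counts per library. The counts were made on build rn6, and reads shared with Rpl29 were not examined. The values of Col6a5 and Col6a6 are therefore uncertain, although both are kept among the expressed members.

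Col7a1, which forms the anchoring fibrils of skin, had a positive log2 fold change, unlike most members. It was at 445, 453 and 406 CPM with BCAA and at 287, 424 and 422 CPM with vehicle. The value was 0.20 (SE 0.13, edgeR adjusted p = 0.59) with all libraries and 0.04 (SE 0.05) without vehicle replicate 1. Col8a1 and Col8a2 are the short chains of type VIII, a network collagen of vessels and the eye. Col8a1 was at 282, 246 and 233 CPM with BCAA and at 253, 279 and 322 CPM with vehicle, and Col8a2 was at 40.0, 41.6 and 35.9 CPM with BCAA and at 38.0, 48.9 and 42.3 CPM with vehicle. Col8a1 had a log2 fold change of -0.16 (SE 0.09) and Col8a2 one of -0.14 (SE 0.10), and without vehicle replicate 1 these were -0.24 and -0.22.

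Col12a1 and Col16a1 are fibril-associated collagens, as is Col14a1. Col12a1 was at 292, 258 and 248 CPM with BCAA and at 252, 254 and 282 CPM with vehicle, with a log2 fold change of 0.02 (SE 0.08), which was -0.00 without vehicle replicate 1. Col16a1 was at 126, 135 and 120 CPM with BCAA and at 101, 158 and 149 CPM with vehicle. It showed the pattern of Col1a1 and Col15a1, with a log2 fold change of -0.10 (SE 0.14, edgeR adjusted p = 0.83) over all libraries and -0.27 (SE 0.06, adjusted p = 0.013) without vehicle replicate 1. Col20a1 was at 14.7, 11.7 and 12.6 CPM with BCAA and at 8.16, 12.5 and 11.5 CPM with vehicle (log2 fold change 0.27, SE 0.16, and 0.11 without vehicle replicate 1). Its span in GRCr8 overlaps Chrna4, which had 3 to 14 counts per library. Col9a2, a chain of the cartilage type IX, spanned 2.11 to 4.31 CPM with BCAA and 2.01 to 3.29 CPM with vehicle. Col17a1, a transmembrane collagen of epithelia, and Col6a6 were the members just above the border of 1 CPM, at 2.11 and 2.05 CPM on average, and Col24a1 and Col9a3 those just below it, at 0.81 and 0.79 CPM. Col17a1 was at 2.70, 1.90 and 1.41 CPM with BCAA and at 2.44, 2.41 and 1.80 CPM with vehicle. Col6a6 was at 1.49, 2.91 and 1.64 CPM with BCAA and at 2.01, 1.59 and 2.66 CPM with vehicle. In both genes the groups overlapped. Col24a1 was at 0.94, 1.14 and 0.78 CPM with BCAA and at 0.36, 0.51 and 1.10 CPM with vehicle. Col9a3 was at 1.28, 0.89 and 0.78 CPM with BCAA and at 0.36, 0.70 and 0.71 CPM with vehicle. Col9a3 and Col24a1 passed the low-count filter and were tested, with log2 fold changes of 0.74 (SE 0.43) and 0.58 (SE 0.46), against 0.49 and 0.31 without vehicle replicate 1. The other 14 rows were not tested. Of these Col4a3, Col4a4, Col4a6, Col2a1, Col6a4, Col10a1, Col19a1, Col22a1, Col23a1, Col25a1 and Col28a1 had between 3 and 42 counts over all libraries. Col13a1, Col26a1 and Col9a1 had no count in any library, which allows a level of up to 0.24 CPM at the shallowest library, where 3 counts is the limit that a count of 0 allows.

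Of the 5 genes called only when vehicle replicate 1 was left out, Col15a1 and Col16a1 are those whose RefSeq promoters (GRCr8) were used here, and they are shown because in both the BCAA libraries lay above vehicle replicate 1 and below the other vehicle libraries. The 250 bases before the start of Col15a1 (chr5:66297296-66297545, plus strand) and of Col16a1 (chr5:147672846-147673095, plus strand) are printed with GC boxes in capitals.

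Col15a1: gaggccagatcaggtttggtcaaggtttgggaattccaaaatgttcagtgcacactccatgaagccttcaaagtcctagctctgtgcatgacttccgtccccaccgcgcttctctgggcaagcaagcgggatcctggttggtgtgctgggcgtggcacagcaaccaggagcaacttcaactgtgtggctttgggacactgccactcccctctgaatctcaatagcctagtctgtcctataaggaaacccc

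Col16a1: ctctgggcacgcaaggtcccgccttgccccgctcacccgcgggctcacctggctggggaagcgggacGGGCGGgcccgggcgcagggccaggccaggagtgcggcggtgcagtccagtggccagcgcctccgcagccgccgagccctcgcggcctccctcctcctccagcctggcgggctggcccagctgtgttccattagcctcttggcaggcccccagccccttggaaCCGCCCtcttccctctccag

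The Col15a1 stretch holds no GC box and is 54.0% G or C, while that of Col16a1 holds 2 and is 74.8% G or C. Over all promoters of that length the median was 51.2% G or C. A GC box was in 15 of the 21 expressed members with a single entry, and in 30.5% of all 33469 promoters of that length. Those 33469 include genes that were not expressed here, and no share over expressed genes alone was taken. No share was matched for G and C content either. The motif is a description of these letters only.

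Vehicle replicate 1 was often the library with the least collagen. It was the lowest of the 6 libraries for 14 of the 27 expressed members, beside 24.7% of all genes, and the highest for 3, beside 23.6%. Its level was divided by the mean of vehicle replicates 2 and 3, with 0.5 CPM added to both. The addition shrinks the values of genes at low CPM. The median log2 value of this ratio was -0.26 over the members and 0.00 over all genes tested. The lowest such values were -0.78 for Col11a2, -0.66 for Col15a1, -0.63 for Col1a1, -0.60 for Col27a1 and -0.60 for Col16a1. At the other end, Col6a5 was at 0.64, Col11a1 at 0.19, Col17a1 at 0.17 and Col6a3 at 0.14. The median coefficient of variation of the members was 8.08% over BCAA libraries and 16.2% over vehicle libraries, beside 7.70% and 9.92% over all genes. Without vehicle replicate 1, 22 of the 27 members had a negative log2 fold change, with a median of -0.14, where 47.9% of all genes were negative with a median of 0.01. This shift is not separate from the values above. Vehicle replicate 1 was the lowest vehicle library for 21 of the 27 members, and leaving it out raises their vehicle mean. The part of the mitochondrial share, or of other properties of that library, in these values was not tested.

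**Figure D4:**
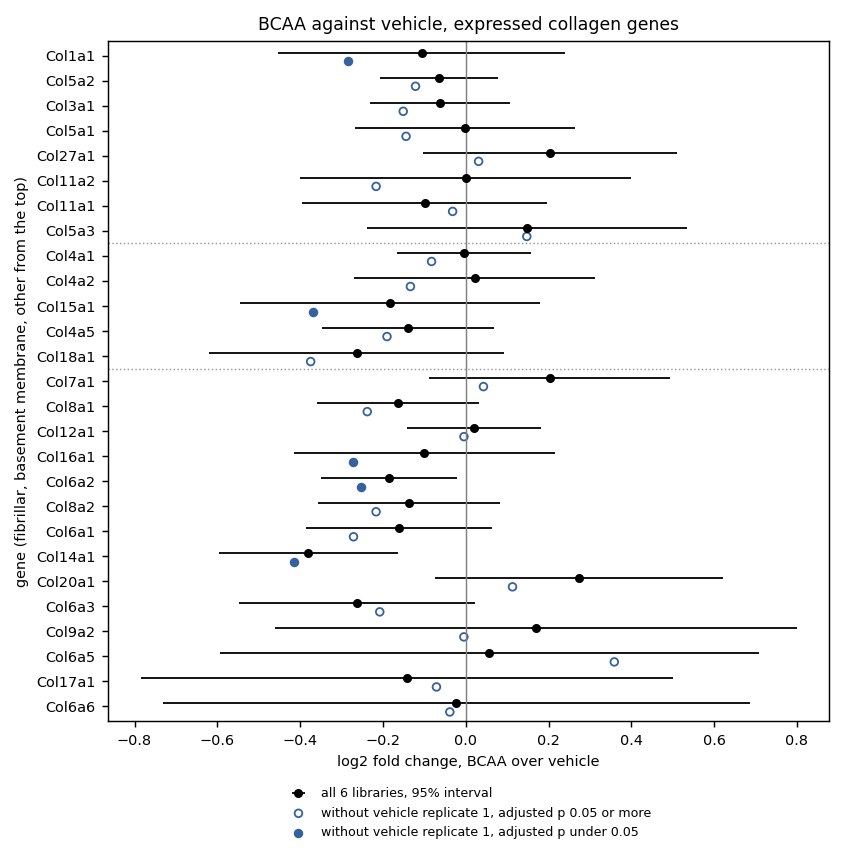
Log2 fold change of BCAA over vehicle for the 27 expressed collagen genes, with fibrillar, basement membrane and other genes from the top. Black points and bars are all 6 libraries with 95% intervals, and blue points leave out vehicle replicate 1, filled for the 5 genes with an adjusted p under 0.05; most blue points lie left of the black ones.

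The genes that modify, fold, cut, link, bind or degrade collagen gave 1 call in 66 tested (edgeR, adjusted p under 0.05), beside 0.228% of all genes. Their median log2 fold change was -0.03, with 41 negative and 25 positive. Prelp, a small leucine-rich proteoglycan that ties collagen to basement membranes, was at 480, 471 and 487 CPM with BCAA and at 614, 600 and 615 CPM with vehicle. All BCAA libraries lay below all vehicle libraries. It fell 1.27-fold with BCAA (log2 fold change -0.35, SE 0.06, edgeR adjusted p = 0.018). The call was lost without any one library other than vehicle replicate 1, with adjusted p up to 0.19, and also with the replicate number as a block. The other 4 fibril proteoglycans tested did not pass. Bgn, biglycan, was at 3565, 3508 and 3756 CPM with BCAA and at 4314, 3686 and 3730 CPM with vehicle (log2 fold change -0.12, SE 0.07, and -0.04 without vehicle replicate 1). The median of the list was -0.06 with all libraries and turned to 0.01 without vehicle replicate 1.

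Of the 9 folding and export genes none passed, and all 9 log2 fold changes were negative, where 49.2% of all genes were, with a median of -0.04. Kdelr2 (0.06), Mia3 (0.02) and Sec23a (0.07) were positive without vehicle replicate 1. Creb3l1, the membrane-bound factor that activates collagen transcription and export, was at 51.9, 51.8 and 49.9 CPM with BCAA and at 61.6, 65.7 and 68.8 CPM with vehicle. The groups did not overlap, and the log2 fold change was -0.35 (SE 0.08, edgeR adjusted p = 0.071). DESeq2, and edgeR without the low-count filter, called Creb3l1. The export coat gene Sec24d had a log2 fold change of -0.12 (SE 0.06). Serpinh1, the collagen chaperone HSP47, was at 1040, 1080 and 1101 CPM with BCAA and at 1051, 1148 and 1116 CPM with vehicle (log2 fold change -0.04, SE 0.06, and -0.07 without vehicle replicate 1).

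Among 13 hydroxylation and glycosylation genes none passed (8 negative, 5 positive, median -0.05, and -0.09 without vehicle replicate 1). P3h4, a partner of lysyl hydroxylase in the endoplasmic reticulum, was at 51.5, 58.1 and 58.8 CPM with BCAA and at 69.0, 70.2 and 68.1 CPM with vehicle (log2 fold change -0.30, SE 0.08, edgeR adjusted p = 0.13). For P4ha3, a subunit of prolyl hydroxylase, the log2 fold change was -0.16 (SE 0.08). None of 6 propeptide cleavage genes passed, with Tll1 and Bmp1, metalloproteases of the procollagen C-propeptide, at -0.11 (SE 0.07) and -0.11 (SE 0.09), Bmp1 at -0.22 without vehicle replicate 1. None of 6 cross-linking genes passed. Lox, lysyl oxidase, was at 2473, 2376 and 2436 CPM with BCAA and at 2858, 2542 and 2676 CPM with vehicle (log2 fold change -0.15, SE 0.06, edgeR adjusted p = 0.38), and its relative Loxl4 averaged 3.21 ± 0.426 CPM with BCAA, against 2.29 ± 0.537 CPM under vehicle (SD, n = 3 each).

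None of 7 collagen receptors passed (median 0.06, and 0.03 without vehicle replicate 1), with Itga11, a fibroblast integrin for fibrillar collagen, at a log2 fold change of -0.19 (SE 0.08) and Itga2 at 0.25 (SE 0.13). Itga2 was at 116 CPM in BCAA replicate 1, 84.2 and 80.7 CPM in the other BCAA libraries and 71.3 to 87.5 CPM in vehicle libraries, and its log2 fold change ran from 0.06 to 0.34 with a library left out. None of 6 collagen-degrading genes passed (median 0.00, and -0.01 without vehicle replicate 1). Ctsk, cathepsin K, had a log2 fold change of -0.20 (SE 0.07), and Mmp13, a collagenase, was at 1312, 1305 and 1437 CPM with BCAA and at 1374, 1086 and 1108 CPM with vehicle (log2 fold change 0.18, SE 0.09, and 0.30 without vehicle replicate 1). None of 14 basement membrane partners passed (5 negative, 9 positive, median 0.03, which was -0.05 without vehicle replicate 1). Nid2, nidogen 2, and Lama2, a laminin chain, had opposite signs at -0.25 (SE 0.07) and 0.23 (SE 0.08). Without vehicle replicate 1, Prelp, Creb3l1, P3h3, P3h4, Bmp1 and Nid2 were called lower and Mmp13 higher, beside 2.2% and 1.86% of all genes.

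**Figure D5:**
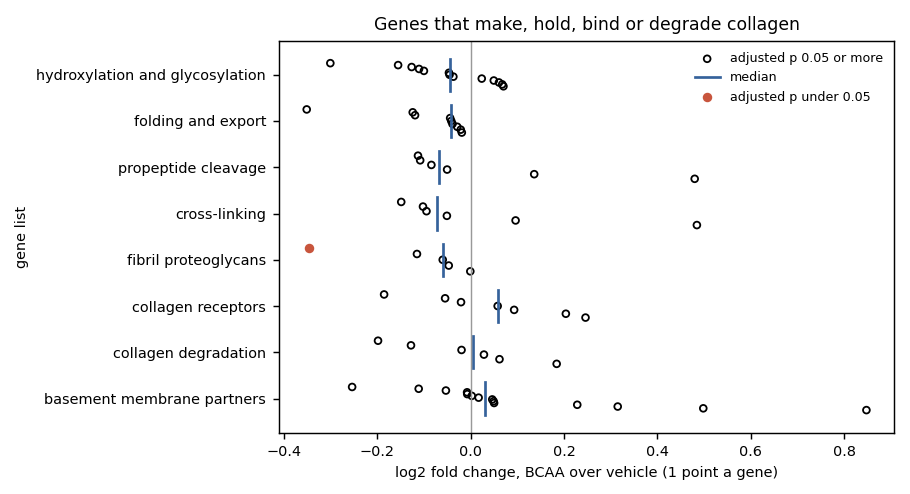
Log2 fold change of BCAA over vehicle for each tested gene of 8 lists around collagen, with the list median as a blue line. Prelp, the filled point in the row of fibril proteoglycans, is the only gene of the 66 with an adjusted p under 0.05.

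Of the smooth muscle and pericyte markers, 2 of 5 tested were called lower with BCAA (edgeR, adjusted p under 0.05), beside 0.228% of all genes called, and no tested marker of another cell type passed. All 5 (Acta2, Tagln, Cnn1, Myh11 and Des) had negative log2 fold changes, and their list with Rgs5, which was under 1 CPM, summed to 601 to 629 CPM in BCAA libraries and 880 to 945 CPM in vehicle libraries. Most of that sum was Tagln, at 507 to 534 CPM with BCAA and 758 to 820 CPM with vehicle. Acta2, smooth muscle actin, and Tagln, transgelin, fell (log2 fold changes -0.86, SE 0.09, and -0.61, SE 0.06; edgeR adjusted p = 0.00059 and 0.00036), and both kept the call with each library left out in turn. Cnn1, Myh11 and Des had adjusted p of 0.057, 0.35 and 0.47 in the same edgeR test. In contrast to many collagen genes, Acta2 and Tagln did not set vehicle replicate 1 apart. Their log2 values over the mean of the other vehicle libraries, again with 0.5 CPM added, were 0.03 for each. These values were 0.09 for Cnn1, 0.005 for Myh11 and 0.11 for Des. The part of these markers' cells in the collagen values was not tested. In bulk RNA, fewer cells of a type and less RNA per cell cannot be told apart.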

How the data were processed

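Raw read counts per gene symbol were deposited by the authors for 6 libraries (3 per group), without scaling or pooling. The submitters' processing notes list Trimmomatic, FastQC, STAR and HTSeq, and build rn6. No version, annotation or strand setting is given there, so reads of overlapping genes may be misassigned. RNA was taken with TRIzol and libraries were made with a NEBNext Ultra kit, per the labels' protocols.

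Counts were tested on the whole table (21857 rows) with edgeR 4.0.16 in R 4.3.3 (robust quasi-likelihood, TMM scaling, filterByExpr with minimum count 10 and total 15, group as the only term). This left 12298 genes, with Benjamini-Hochberg adjustment and a threshold of 0.05. The SE is the log2 fold change divided by the square root of F, and 95% intervals use the moderated degrees of freedom. CPM uses TMM-scaled totals. Alternatives were DESeq2 1.42.0, no filter, RLE factors, unscaled totals, a replicate block and each library left out, with the tested genes kept. Scripts were tested on simulated data. The chi-square per degree of freedom of 15 library pairs was 2.65 to 18.1, so no library was a copy of another.

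The basement membrane class holds type IV chains, Col15a1 and Col18a1. Of 45 collagen symbols in the class lists, 43 were in the table, and Col1a2 and Col21a1 were not analysed here. Of 114 other list symbols, 111 were found, Crtap and Hspg2 under older names (RefSeq, GRCr8), while Pcolce2, Pecam1 and Itgam were not analysed here. Members and lists were chosen with earlier results of these data known. Named genes are, per class, the 4 with the most counts and the 4 with the smallest p, their partner chains, the members next to 1 CPM, and the called and 2 smallest-p genes of each other list; Col11a1, Col11a2, Col2a1, Col20a1, Serpinh1 and the listed low members were added after their values were seen.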

Additional observations from a re-analysis of the deposited data

How the results depend on the processing

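The number of collagen genes called was 0 with DESeq2, with no filter on low counts, with RLE factors, with unscaled totals and with the replicate block, and 0 to 5 with a library left out, the 5 without vehicle replicate 1. Over all genes the count was 28 in the main fit, 131 with DESeq2, 124 with no filter on low counts and 6 with the replicate block, and it ran from 7 to 500 with a library left out (500 without vehicle replicate 1, 7 to 11 without another). Among the genes around collagen it was 1, against 2 with DESeq2 and 2 without the filter, 0 with the replicate block, where Prelp was not called, and 0 to 7 with a library left out. The median log2 fold change of the expressed members was -0.06 and ran from -0.14, without vehicle replicate 1, to -0.03, without vehicle replicate 3, over the alternatives run. With unscaled totals 15 rather than 18 of the 27 members were negative, and all genes shifted by 0.03. With a library left out, 10 of the 27 members took both signs. Those that changed sign and moved from their value over all libraries by more than its SE were Col4a2, Col11a2, Col12a1 and Col9a2. Col4a2 (-0.13 to 0.13) and Col11a2 (-0.22 to 0.14) did so without vehicle replicate 1. Col12a1 (-0.055 to 0.074) did so without BCAA replicate 1, and Col9a2 (-0.18 to 0.36) without BCAA replicate 2. Smaller negative values came without BCAA replicate 1 or 2 for Col4a2 and Col11a2. They also came without vehicle replicate 1 or 2 for Col12a1, and without vehicle replicate 1 for Col9a2. The cause was not tested. Deviations of equal replicate numbers correlated across genes at -0.07, 0.14 and -0.17, and 2 of 6 libraries correlated best with their own number, so the numbers were not taken as pairs. At these depths the SE of an expressed member was 0.07 to 0.33, and 7 of the 27 had intervals too wide to exclude a 1.5-fold change. These were Col14a1, Col18a1 and Col20a1, and the less read Col9a2, Col6a5, Col17a1 and Col6a6.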
